A study of Homo sapiens with 12 samples.

Results

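The genes described here are 10 genes of the neurofilament network and the neuronal cytoskeleton, taken by name from the 55765 gene names of the RNA-seq table: NEFL, NEFM, NEFH, INA, VIM, TUBB3, MAP2, DCX, STMN2 and GAP43. All 10 names were found in the table. RNA-seq was measured in HEK293T cells (a line derived from human embryonic kidney and expressing SV40 large T antigen) in 3 libraries after control siRNA and 3 libraries after ERI2 siRNA. ERI2 encodes a putative exonuclease of the same family as ERI1 and ERI3. Both groups had the same line and no further genetic change, and per the labels' protocols received 50 nM siRNA from the same supplier in 2 transfections 48 h apart, with harvest 72 h after the second. The cell line label reads HEK293T, the growth protocol reads HEK293, and the treatment text also names ERI-1 siRNA, which is no group here. There was 1 line, no second ERI2 siRNA group and no rescue, so off-target effects and loss of ERI2 cannot be told apart. Whether the replicates came from separate cultures is not stated; p-values here measure only how far these libraries spread, and that spread may be technical. The questions are how much of each gene HEK293T cells hold with control siRNA and whether that level differs after ERI2 siRNA.

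Neurofilaments are the intermediate filaments of axons and set axon calibre. They are built from a light chain (NEFL), a medium chain (NEFM), a heavy chain (NEFH) and alpha-internexin (INA), which needs no partner to assemble, while vimentin (VIM) forms the filaments of embryonic and mesenchymal cells and is replaced by neurofilaments as neurons mature. Microtubules are the other track system of axons: TUBB3 is the beta-tubulin isotype used as a neuronal marker, MAP2 binds dendritic microtubules, DCX binds the microtubules of migrating neurons, and STMN2 is a stathmin of growth cones. GAP43 is a membrane protein of growth cones. HEK293 lines are known to carry neurofilament proteins although they were made from embryonic kidney.

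Promoter sequences are shown for INA, TUBB3 and VIM, as the members with the highest counts among those in the sequence table, so that a reader can see how unlike the starts of these genes are. The sequences are from RefSeq (build GRCh38.p14, another build than the hg19 of the count table) and give the 250 bases before the annotated start, 5′ to 3′. Of the 10 members 6 had an entry, TUBB3 had 2 entries, of which the second is shown, and none is printed for the others. Capitals mark a match on either strand to the SP1 box GGGCGG, the CCAAT box CCAAT, the TATA box TATAAA or the AP-1 site TGANTCA.
INA, chr10:103276888-103277137, plus strand: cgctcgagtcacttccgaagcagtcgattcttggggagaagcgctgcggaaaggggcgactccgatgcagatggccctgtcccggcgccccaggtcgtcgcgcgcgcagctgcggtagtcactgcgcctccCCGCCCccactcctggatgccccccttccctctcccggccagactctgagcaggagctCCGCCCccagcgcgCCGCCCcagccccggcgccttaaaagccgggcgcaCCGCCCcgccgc
TUBB3, chr16:89923092-89923341, plus strand: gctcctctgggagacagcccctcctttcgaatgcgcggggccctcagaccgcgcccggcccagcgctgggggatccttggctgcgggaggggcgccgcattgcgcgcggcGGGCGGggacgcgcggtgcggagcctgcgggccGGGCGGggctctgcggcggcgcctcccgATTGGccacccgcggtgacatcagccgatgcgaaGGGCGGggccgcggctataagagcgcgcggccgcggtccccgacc
VIM, chr10:17227991-17228240, plus strand: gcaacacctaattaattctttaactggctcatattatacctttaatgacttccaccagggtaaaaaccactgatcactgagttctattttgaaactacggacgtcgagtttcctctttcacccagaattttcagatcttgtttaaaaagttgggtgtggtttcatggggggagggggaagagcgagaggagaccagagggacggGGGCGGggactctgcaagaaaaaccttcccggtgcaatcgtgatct
The INA stretch held 4 SP1 boxes at 72.8% G and C. The TUBB3 stretch held 3 SP1 boxes and 1 CCAAT box at 78% G and C. The TUBB3 entry not printed held 0 SP1 boxes, 0 CCAAT boxes and 1 AP-1 site over its 300 bases, at 65.3% G and C. The picture of TUBB3 thus depends on the entry shown. The VIM stretch held 1 SP1 box at 46% G and C. Among all 35116 promoter entries of 300 bases, 45% held an SP1 box, 34.6% a CCAAT box, 11.5% a TATA box and 7.71% an AP-1 site. These matches describe letters in a window, and no binding was measured.

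The 6 libraries held from 29.1 to 38.3 (in units of 1e+06 counts), and ERI2 itself was lower in each ERI2 siRNA library, at 32.5 to 35.8 against 54.4 to 58.2 CPM (counts per 1e+06 counts, on library sizes scaled by TMM). In each group, replicate 1 was the library unlike the rest. On the first principal component of log2 CPM over all tested genes, with 45.2% of the variance, control replicate 1 lay at -6.29 and ERI2 siRNA replicate 1 at 8.45, between control replicates 2 and 3 (-31.8 and -32.4) and ERI2 siRNA replicates 2 and 3 (25.7 and 36.4). On the second component, with 19.3% of the variance, control replicate 1 lay at 23.3 and ERI2 siRNA replicate 1 at -33.4. The other libraries lay between these, from -4.95 to 7.34, so the replicate 1 libraries were displaced in opposite directions there. The labels name no batch that separates the replicate 1 libraries. Results below are therefore also given for replicates 2 and 3 alone, a choice made with earlier results of these data known. The library left out of each group was the one nearest the other group on the first component, which favours larger differences and more calls. Genes called lower in edgeR went from 800 to 2670, so a pass with replicates 2 and 3 alone is no separate support.

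With control siRNA, VIM was abundant, NEFL, INA, TUBB3 and NEFM were present at moderate to low levels, and the other 5 members were near or under 1 CPM. Levels of different genes are not ranked against each other, because no transcript lengths were used here and longer transcripts give more counts. VIM measured 924 ± 62.4 CPM (SD, n = 3), with 28266 to 34345 counts per library. NEFL measured 36.5 ± 4.59 CPM, INA 21.2 ± 2.10 CPM, TUBB3 12.4 ± 1.99 CPM and NEFM 8.09 ± 0.839 CPM. MAP2 measured 1.24 ± 0.0359 CPM from 35 to 45 counts per library, and GAP43 0.992 ± 0.334 CPM from 23 to 51 counts. NEFH had 6, 6 and 1 counts in the 3 control libraries, STMN2 had 2, 0 and 5, and DCX had 0 in each. A count of 0 allows up to 3 counts per library, which covers counting error only. In the control libraries this is 0.0783 to 0.0997 CPM on library sizes not scaled by TMM, unlike the other CPM here. The neurofilament light and medium chains and INA were thus detected in every library, while the heavy chain was at the edge of detection and DCX was not detectable with control siRNA at this depth.

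After ERI2 siRNA, the neurofilament genes NEFL and INA fell to 70.6% and 71.4% of their control means, and the other tested members were not past the test. Of the 10 members, 7 passed the filter on low counts, and 2 of these were lower and 0 higher (quasi-likelihood test of edgeR, Benjamini-Hochberg adjusted p under 0.05 over 18843 genes). Across all tested genes 4.25% were lower and 4.29% higher. At an unadjusted p under 0.05, 6 members were lower and 0 higher, against 13.1% and 13.4% of all tested genes. DESeq2 called 4 lower and 0 higher, against 6.66% and 5.47% of the genes it tested, and limma-voom 3 and 0, against 3.99% and 4.18%. Of the 7 members 6 had a log2 fold change below 0, as had 49.5% of all tested genes. The median log2 fold change of the 7 members was -0.44, against 0.0030 for all genes tested. The groups did not overlap, with ERI2 siRNA lower, for 6 of the 7, as they did for 15.6% of all tested genes; GAP43 was the exception. The members were given with earlier results of these data known, so these counts describe the list and are no test of it. In bulk RNA, fewer cells that express a gene and less RNA per cell cannot be told apart.

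**Figure D1:**
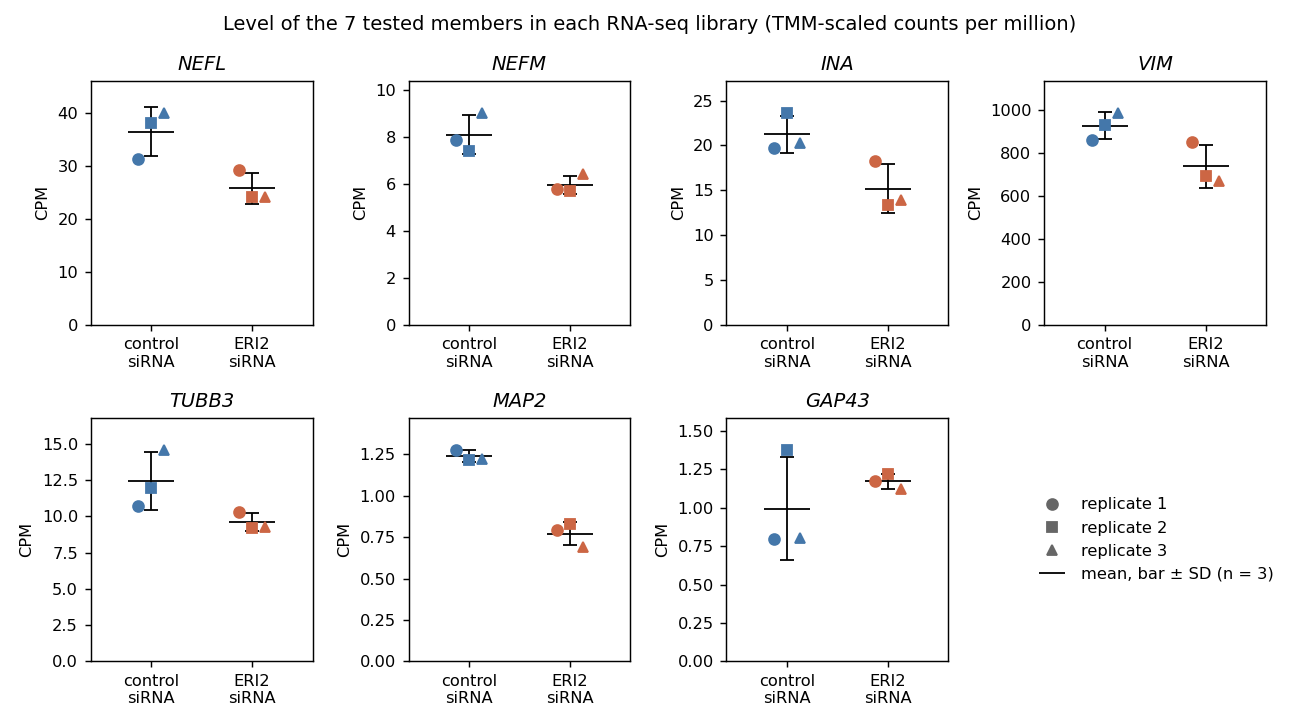
Level of each of the 7 tested members in TMM-scaled CPM (vertical axes, linear from 0, a different range for each gene) in control siRNA (blue) and ERI2 siRNA (orange) libraries, with symbols for the replicate number and black lines for the mean ± SD (n = 3). In NEFL, INA, TUBB3 and VIM the 2 circles of replicate 1 lie close to each other, 31.3 and 29.2 CPM for NEFL, while in MAP2 all ERI2 siRNA libraries lie at or below 0.831 CPM and all control libraries at or above 1.22 CPM.

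NEFL, the light chain on which the other neurofilament chains assemble, measured 31.3, 38.1 and 40 CPM in control replicates 1, 2 and 3 and 29.2, 24.1 and 24.1 CPM in the ERI2 siRNA replicates. The groups did not overlap, but control replicate 1 was the lowest control and ERI2 siRNA replicate 1 the highest of its group. NEFL fell by 0.50 on the log2 scale (SE 0.107, 95% interval -0.73 to -0.27; edgeR adjusted p = 0.0137). INA, the alpha-internexin gene, measured 19.8, 23.6 and 20.3 CPM in the controls and 18.3, 13.3 and 13.9 CPM after ERI2 siRNA. Again the groups did not overlap, and the replicate 1 libraries were the nearest pair across groups. INA fell by 0.49 (SE 0.122, 95% interval -0.75 to -0.22; edgeR adjusted p = 0.0274).

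NEFM, the medium chain, measured 7.85, 7.40 and 9.03 CPM in the controls and 5.80, 5.70 and 6.40 CPM after ERI2 siRNA. Every ERI2 siRNA library lay below every control, replicate 1 included, with a log2 fold change of -0.44 (SE 0.131, 95% interval -0.72 to -0.16) and an edgeR adjusted p = 0.0530, just outside the threshold. NEFM passed in 3 of 16 alternative settings, among them DESeq2 (adjusted p = 0.0425) and replicates 2 and 3 alone (edgeR adjusted p = 0.0362). It did not pass in limma-voom (adjusted p = 0.0618) or under total library size (edgeR adjusted p = 0.107). Nor did it pass with the replicate number as a block (0.147) or with any 1 library left out (0.0561 to 0.182). NEFH, the heavy chain, had 7, 10 and 10 counts after ERI2 siRNA against 6, 6 and 1 in the controls. It was left out of the test by the filter; without that filter its log2 fold change was 1.12 (SE 0.676, adjusted p = 0.386 in edgeR). The direction of NEFH was thus opposite to that of the other neurofilament genes in counts that were too few to pass.

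VIM measured 860, 928 and 985 CPM in the controls and 849, 691 and 668 CPM after ERI2 siRNA. The groups did not overlap, but the replicate 1 libraries differed by -0.02 on the log2 scale, against -0.43 and -0.56 between the libraries of replicates 2 and 3. The log2 fold change over all 6 libraries was -0.33 (SE 0.108, 95% interval -0.56 to -0.10; edgeR adjusted p = 0.0713). VIM passed in 6 of 16 alternative settings, among them DESeq2 (adjusted p = 0.00929) and limma-voom (adjusted p = 0.0485). It also passed with replicates 2 and 3 alone (log2 fold change -0.50, edgeR adjusted p = 4.43e-05). It did not pass with the replicate number as a block (edgeR adjusted p = 0.229). VIM overlaps the antisense gene VIM-AS1 in the RefSeq table, which held 259 counts over the control and 227 over the ERI2 siRNA libraries against 92865 and 70315 for VIM. No source used here gives the strand setting, so reads of this pair cannot be told apart; the counts assigned to VIM-AS1 were few beside those of VIM.

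**Figure D2:**
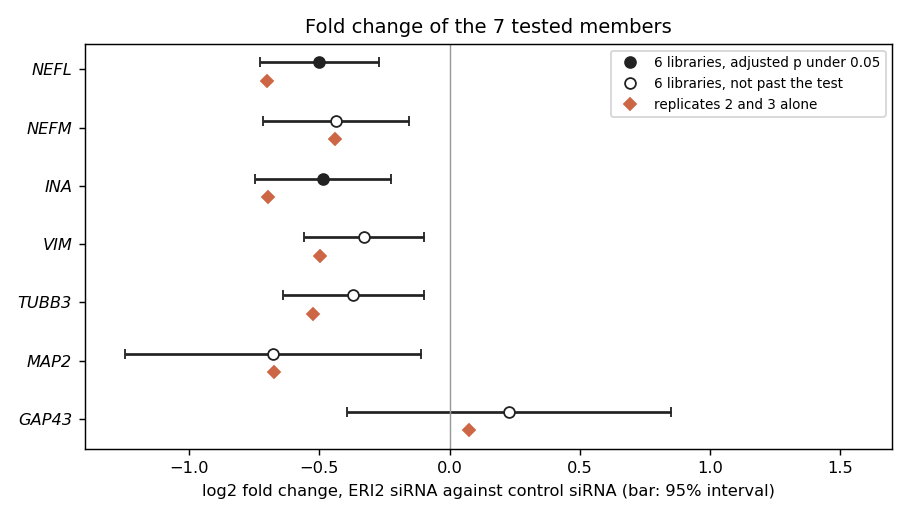
Log2 fold change of ERI2 siRNA against control siRNA (horizontal axis) for the 7 tested members, as circles with 95% intervals from all 6 libraries (filled where adjusted p was under 0.05) and as diamonds from replicates 2 and 3 alone. NEFL, INA, TUBB3 and VIM move left without replicate 1, NEFL from -0.50 to -0.70, while NEFM (-0.44 in both) and MAP2 (-0.68 and -0.67) stay in place.

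Among the microtubule genes, TUBB3 measured 10.7, 12 and 14.6 CPM in the controls and 10.3, 9.20 and 9.27 CPM after ERI2 siRNA. Control replicate 1 and ERI2 siRNA replicate 1 were again neighbours, and control replicate 3 was the highest library. The log2 fold change was -0.37 (SE 0.127, 95% interval -0.64 to -0.10; edgeR adjusted p = 0.0830), and -0.52 with replicates 2 and 3 alone, where it passed (edgeR adjusted p = 0.00591). TUBB3 passed in 4 of 16 alternative settings. Reads of TUBB3 may be shared with other beta-tubulin genes of similar sequence, so its level is uncertain. MAP2 measured 1.28, 1.22 and 1.22 CPM in the controls and 0.792, 0.831 and 0.693 CPM after ERI2 siRNA. It had the lowest log2 fold change of the 7, -0.68 (SE 0.265, 95% interval -1.25 to -0.11), but on 45, 45 and 35 against 25, 28 and 21 counts it did not pass (edgeR adjusted p = 0.121).

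GAP43 measured 0.796, 1.38 and 0.802 CPM in the controls and 1.17, 1.22 and 1.12 CPM after ERI2 siRNA. All 3 ERI2 siRNA libraries lay between the controls, and the log2 fold change was 0.23 with a 95% interval from -0.40 to 0.85 (edgeR adjusted p = 0.659), an interval that holds both rises and falls. STMN2, with 2, 0 and 5 counts in the controls, had 0 in each ERI2 siRNA library. DCX, with 0 in each control, had 3, 6 and 0 counts after ERI2 siRNA. These counts are at or near the limit of 3 counts per library, and no fold is given. The growth cone and migration genes therefore gave either no call or too few counts for one.

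Of the 7 tested members 6 fell into 2 patterns over the libraries, a description made after the values were seen. NEFM and MAP2 were lower by similar amounts whichever same-numbered libraries were compared: -0.44, -0.38 and -0.50 for NEFM and -0.69, -0.55 and -0.82 for MAP2 on the log2 scale in replicates 1, 2 and 3. NEFL (-0.10, -0.66 and -0.73), INA (-0.11, -0.83 and -0.55), TUBB3 (-0.05, -0.38 and -0.66) and VIM (-0.02, -0.43 and -0.56) differed less between the replicate 1 libraries than between the others. GAP43 (0.56, -0.18 and 0.48) followed neither pattern. The part of the replicate 1 libraries' separate position in these values was not tested. Same numbers do not mark a shared culture in the labels.

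Ratios of counts within a library, which need no library scaling, show how the members moved relative to each other. NEFM counts per 100 NEFL counts were 25.1, 19.4 and 22.5 in the controls and 19.9, 23.7 and 26.6 after ERI2 siRNA, so the ranges overlapped. INA counts per 100 NEFL counts were 63.1, 62 and 50.7 against 62.6, 55.4 and 57.7, and overlapped too. NEFL counts per 100 VIM counts were 3.64, 4.11 and 4.06 against 3.44, 3.49 and 3.60, lower in each ERI2 siRNA library than in any control. With 3 against 3 libraries an exact permutation test cannot go below 0.1, so this difference is given as values. TUBB3 counts per 100 counts of TUBB, the beta-tubulin gene with the most counts in the list, were 0.886, 0.817 and 0.979 against 0.793, 0.794 and 0.851, with overlap.

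**Figure D3:**
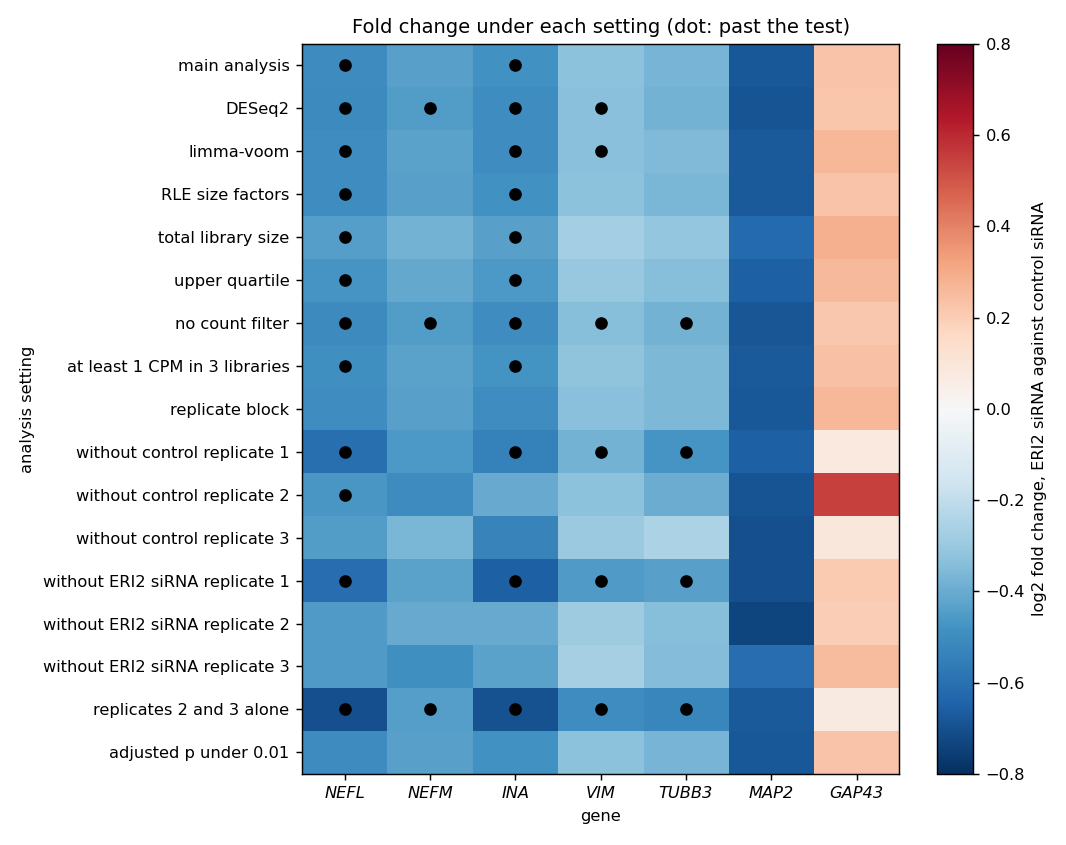
Log2 fold change of each tested member (columns; blue lower and red higher with ERI2 siRNA) in the main analysis and 16 alternative settings (rows), with a black dot where the member passed that setting's test. NEFL has a dot in 11 and INA in 10 of the 16 alternatives, GAP43 and MAP2 have none, and every column but that of GAP43 is blue throughout.

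The calls of NEFL and INA rested on few libraries. NEFL did not pass without control replicate 3 (adjusted p = 0.0728 in edgeR), ERI2 siRNA replicate 2 (0.0684) or ERI2 siRNA replicate 3 (0.0616). INA did not pass without control replicate 2 (adjusted p = 0.109 in edgeR), control replicate 3 (0.0716), ERI2 siRNA replicate 2 (0.124) or ERI2 siRNA replicate 3 (0.116). With replicates 2 and 3 alone, 5 of the 7 members were lower, NEFL, NEFM, INA, TUBB3 and VIM, when 14.1% of all tested genes were lower. Without control replicate 1 and without ERI2 siRNA replicate 1, 4 members were lower each time, against 5.32% and 6.81% of all tested genes. Without control replicate 2 it was 1 member, against 2.19%. Without control replicate 3, ERI2 siRNA replicate 2 or ERI2 siRNA replicate 3 it was 0 members, against 1.09%, 1.11% and 1.01%. With no count filter 5 members were lower, against 3.51%, and at an adjusted p under 0.01 it was 0 members, against 0.77%. A fit with the replicate number as a block called 0 members lower, against 0.52%. With replicates 2 and 3 alone the log2 fold change was -0.70 for both NEFL and INA.

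The genes outside the list whose log2 CPM followed the mean of NEFL, NEFM and INA most closely over the 6 libraries were ATP6V0D1 (Pearson r = 0.997), a subunit of the proton pump of lysosomes, PRCP (0.996), a lysosomal carboxypeptidase, WRB (0.995), a receptor for tail-anchored proteins, DSP (0.995), desmoplakin, which anchors intermediate filaments at desmosomes, and APOBEC3C (0.993), a cytidine deaminase. They are the first 5 of 10311 genes of at least 10 CPM. With 6 libraries in 2 groups that share depth and scaling, such values describe these libraries and carry no p. Of the 5, APOBEC3C (-0.50) and ATP6V0D1 (-0.32) were called lower in edgeR. The 5 were picked for following a mean that was itself lower in every ERI2 siRNA library than in any control. Their direction was thus largely set by the choice, and these calls are no separate support.

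For this and the lists that follow, the shares over all tested genes were 4.25% lower and 4.29% higher in edgeR. Without adjustment they were 13.1% and 13.4%, in DESeq2 6.66% and 5.47%, and in limma-voom 3.99% and 4.18%. With replicates 2 and 3 alone 14.1% were lower, and 2622 of 18915 genes were higher. In lists this short, 1 call is not read as a result about the list. Of 10 tested other intermediate filament genes 1 was lower, KRT18 (-0.27), a keratin of simple epithelia, and 0 were higher in edgeR. Also 0 were higher without adjustment, in DESeq2 and in limma-voom, and the median log2 fold change was -0.03. With replicates 2 and 3 alone 3 were lower and 1 higher. With no count filter, without control replicate 1 and without ERI2 siRNA replicate 1, 1 was higher each time. KRT18 did not pass in limma-voom (adjusted p = 0.0521), under RLE (edgeR adjusted p = 0.0501), upper quartile (0.0558) or total library size (0.0805), or without control replicate 2 or 3 or ERI2 siRNA replicate 2 or 3 (0.115 to 0.190). Its partner KRT8 (-0.36, adjusted p = 0.0839) did not pass in edgeR, and the nuclear lamin genes LMNA (0.02), LMNB1 (-0.05) and LMNB2 (0.14) and the progenitor filament gene NES (-0.0086) did not pass either. PRPH, peripherin of peripheral neurons, had a mean of 0.906 CPM in the controls and 0.629 CPM after ERI2 siRNA and did not pass (-0.52, edgeR adjusted p = 0.312), and neither did the astrocyte filament gene GFAP (-0.39, adjusted p = 0.603). DES, the muscle filament desmin, was too low to test, with 6, 1 and 1 counts in the controls and 8, 13 and 12 after ERI2 siRNA. Of 11 other tubulin genes 1 was lower, TUBA1A (-0.33), the alpha-tubulin of developing neurons, and 0 were higher (edgeR; also 0 higher without adjustment, in DESeq2 and in limma-voom), with a median of -0.08; with replicates 2 and 3 alone 7 were lower. TUBA1A shares long stretches with other alpha-tubulin genes, so its value is uncertain.

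Of 25 tested genes of microtubule-binding proteins, stathmins and collapsin response proteins, 3 fell and 2 rose, with a median of -0.14; 8 were lower and 2 higher without adjustment, 5 and 2 in DESeq2, and 10 and 2 with replicates 2 and 3 alone. MAP6, which makes microtubules cold-stable, fell from 2.82 ± 0.322 to 1.36 ± 0.175 CPM (SD, n = 3), and STMN1, the stathmin of dividing cells, from 412 ± 46.9 to 316 ± 39.8 CPM with overlapping groups. SPAST, a microtubule-severing enzyme named after its value was seen, fell by 0.29. MAP1S, a microtubule-associated protein, rose by 0.49. These 4 calls had edgeR adjusted p-values between 0.0107 and 0.0432. DCLK1 (-0.36), a close relative of DCX, measured 11.2 ± 1.13 against 8.73 ± 0.961 CPM and did not pass (adjusted p = 0.0855 in edgeR).

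**Figure D4:**
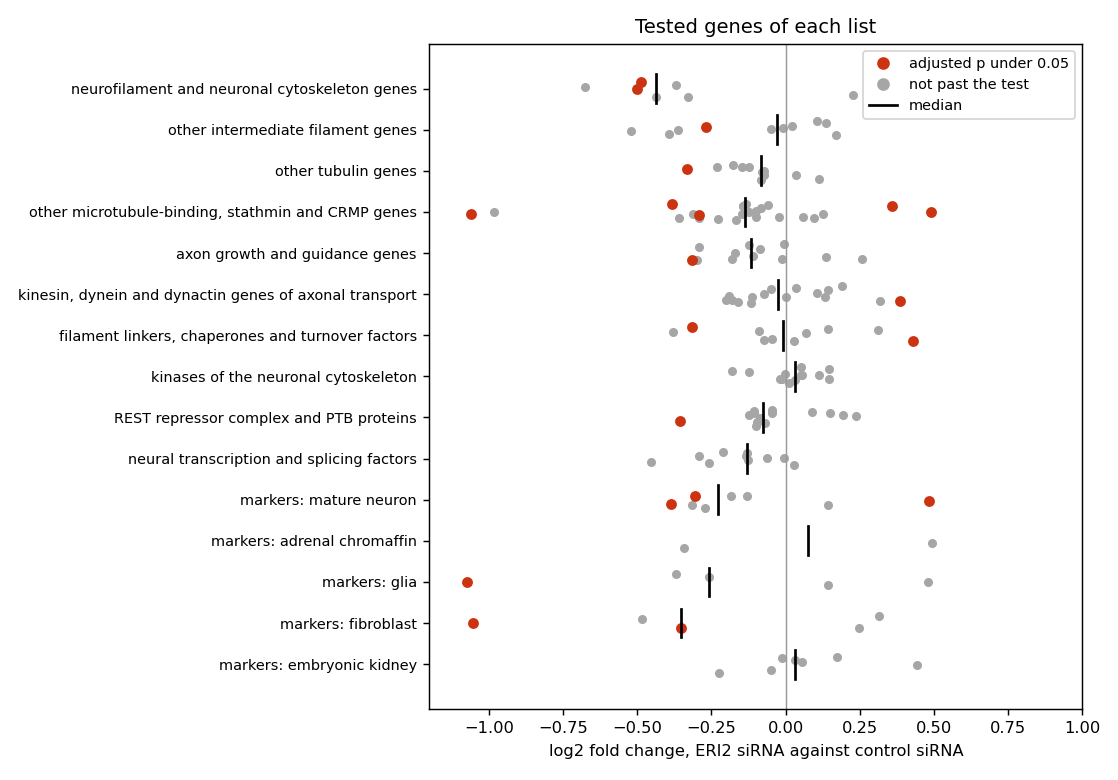
Log2 fold change (horizontal axis) of every tested gene in each list (rows), red where adjusted p was under 0.05 and grey otherwise, with a black line at the median of the list. The medians run from -0.44 for the neurofilament and neuronal cytoskeleton genes to 0.08 for the 2 tested chromaffin markers.

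Among genes of axon growth and guidance 1 of 12 was lower, the cell adhesion gene NCAM1 (-0.31), and 0 were higher (edgeR; 1 higher without adjustment, 0 in DESeq2 and limma-voom), and NCAM1 did not pass under total library size (adjusted p = 0.0775). With replicates 2 and 3 alone 5 of these genes were lower and 1 higher. Of 16 genes of axonal transport 1 was higher, the dynein adaptor gene BICD1 (0.38), and 0 were lower (edgeR; 3 lower without adjustment, 1 in DESeq2, 0 in limma-voom, 5 with replicates 2 and 3 alone). Among 10 tested linkers and turnover factors of filaments, STUB1, a ubiquitin ligase that acts with chaperones, rose from 71.3 ± 6.25 to 96 ± 4.49 CPM (SD, n = 3). TRIM2, a ubiquitin ligase known to bind the neurofilament light chain, fell from 93 ± 4.21 to 74.8 ± 0.890 CPM. None of 13 kinase genes of this cytoskeleton passed in edgeR (also 0 without adjustment, in DESeq2 and in limma-voom; 1 lower with replicates 2 and 3 alone). The kinase genes MARK3 and ROCK1, named for the highest CPM over all 6 libraries with no account of length, had log2 fold changes of 0.15 and 0.01, and ROCK1 turned sign with replicates 2 and 3 alone (-0.10).

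The repressor REST, which keeps neuronal genes silent outside neurons, measured 90.6 against 86.5 CPM and did not pass (log2 fold change of -0.07, adjusted p = 0.549 in edgeR). Of the 14 genes of its complex, its phosphatases and the PTB splicing repressors, 1 was lower, CTDSP2 (-0.36), a phosphatase that acts on REST, and 0 were higher (edgeR; 3 higher without adjustment, 0 in DESeq2 and limma-voom, 2 under total library size); with replicates 2 and 3 alone 3 were lower and 1 higher. None of 10 tested neural transcription and splicing factors passed in edgeR (1 lower without adjustment, 1 in DESeq2, 0 in limma-voom). With replicates 2 and 3 alone 1 was lower. RBFOX2 (-0.21) and SOX4 (-0.13) were named by the same rule as the kinases and did not pass, and ELAVL4 and RBFOX1 had 0 counts in all 6 libraries.

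Markers of mature neurons beyond the cytoskeleton were mixed. Of 8 tested, ENO2 (-0.39), a neuronal enolase, and SYT1 (-0.30), a synaptic vesicle calcium sensor, fell and STX1A (0.48), a presynaptic SNARE protein, rose; SYT1 did not pass under total library size (adjusted p = 0.0915) or when any 1 of 5 libraries, all but ERI2 siRNA replicate 1, was left out. SNAP25, SYN1 and RBFOX3 were too low to test. The summed level of the 11 markers was 157 to 169 CPM in the controls and 139 to 145 CPM after ERI2 siRNA. ENO2 alone held a mean of 61.3 CPM of this sum in the controls and 46.9 CPM after ERI2 siRNA. For chromaffin cells TH and PHOX2A were at 0 in all 6 libraries, and the summed level of 7 markers was 0.756 to 1.29 against 0.957 to 1.25 CPM; of the 2 tested, CHGA (-0.34) and PNMT (0.49), none passed in edgeR (also 0 without adjustment, in DESeq2 and in limma-voom).

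For glia, SOX10 was at 0 and the summed level of 8 markers was 11 to 12.5 against 10.4 to 11.5 CPM, with AQP4 (-1.07, from 1.57 to 0.738 CPM), a water channel, lower among 5 tested. AQP4 did not pass under total library size (edgeR adjusted p = 0.0516) or with replicates 2 and 3 alone (0.0537). For fibroblasts, which are rich in VIM, COL1A2 and THY1 were at 0 in all 6 libraries. The summed level of 9 fibroblast markers was 75.1 to 84.8 CPM in the controls and 62.1 to 66.1 CPM after ERI2 siRNA, and COL3A1 (-1.05) and FBN1 (-0.35) were lower among 5 tested. FBN1 alone held 61.9 CPM of the sum in the controls and 48.5 CPM after ERI2 siRNA. COL1A1 (0.31), LUM (0.25) and PDGFRA (-0.48) did not pass (edgeR adjusted p of 0.152, 0.769 and 0.111). This sum moved in the same direction as VIM, and its part in the level of VIM was not tested. Of 7 tested embryonic kidney markers none passed in edgeR (also 0 without adjustment, in DESeq2 and in limma-voom; 1 higher with replicates 2 and 3 alone), with a summed level of 87.3 to 93.7 against 87.6 to 93.7 CPM. EYA1 measured 49.1 against 47.5 CPM and SALL1 28.2 against 28.8 CPM, and these held most of the sum. Of the other markers, SIX2 measured 5.89 against 6.11 CPM, WT1 3.22 against 2.76 CPM and GATA3 2.24 against 2.53 CPM. LHX1 measured 1.55 against 1.53 CPM and PAX2 0.762 against 1.04 CPM. PAX8, a defining gene of the kidney lineage, had 3 counts over the control and 0 over the ERI2 siRNA libraries.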

How the data were processed

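The RNA-seq values are raw counts of reads per gene, as the authors deposited them (whole numbers, with totals that differ between libraries). The submitters' processing notes name HTSeq 0.6.1p1, TopHat2 2.0.10, CASAVA 1.8.2 and hg19 without a role; no source used here gives the strand setting or the annotation release. Every column matched one sample, with 0 left over. The miRNA-seq table was not used here.

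The filter filterByExpr kept 18843 of 55765 names, with at least 99.9% of counts. TMM scaling and the robust quasi-likelihood test of edgeR 4.0.16 (R 4.3.3) followed, at a Benjamini-Hochberg adjusted p under 0.05 over all tested genes. The fit was tested on simulated data. Standard errors are the log2 fold change divided by the square root of F. Alternatives were DESeq2 1.42.0, limma-voom (limma 3.58.1), RLE, total library size, upper quartile, no filter, at least 1 CPM in 3 libraries, a block for the replicate number, each library left out, replicates 2 and 3 alone, and an adjusted p under 0.01. Named are all members, up to 4 genes per list by p or, where none passed, the 2 most abundant, and the 5 genes most like NEFL, NEFM and INA; REST, DCLK1, SPAST, DES, TUBB, SNAP25, SYN1, RBFOX3, KRT8, NES, GFAP, COL1A1, LUM, PDGFRA, PAX2, PAX8, PRPH and the lamin genes were named after their values were seen. Some list genes are not reported here. The members and lists were chosen with earlier results of these data known. Promoters and overlapping genes were matched by symbol in RefSeq tables of GRCh38.p14. Replicates of a group differed by more than counting noise, the lowest chi-square over its degrees of freedom being 5.00.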

Additional observations from a re-analysis of the deposited data

How the results depend on the processing

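NEFL, NEFM, INA, TUBB3, MAP2 and VIM stayed below 0 and GAP43 above 0 in all 16 alternatives run. The groups of the 6 lower members did not overlap, so leaving libraries out could hardly turn their sign. The setting at an adjusted p under 0.01 keeps the fold changes of the main fit. These signs are thus no separate support. The count of lower members, 2 of 7, was 4 by DESeq2, 5 without a count filter, 5 with replicates 2 and 3 alone, 0 at an adjusted p under 0.01, and from 0 to 4 with each library left out in turn: 4 without control replicate 1 or ERI2 siRNA replicate 1, 1 without control replicate 2, and 0 without any other library. Across all genes, 800 lower and 809 higher became 463 lower under total library size, 1290 higher without a count filter, 2670 lower and 2622 higher with replicates 2 and 3 alone, and 145 lower and 139 higher at an adjusted p under 0.01. With each library left out the counts ran from 195 to 1327 lower and from 176 to 1424 higher. Total library size shifted the median over all genes, 0.0030 on the log2 scale, to 0.061 and the median of the tested members from -0.44 to -0.38. With the replicate number as a block, no member passed (0; adjusted p = 0.0780 for NEFL and 0.0973 for INA in edgeR), and 98 genes were lower and 105 higher. Deviations from the group means correlated at -0.300, -0.079 and -0.104 between the same-numbered libraries of replicates 1, 2 and 3. Between libraries of different numbers the values ran from -0.176 to 0.262. Both replicate 1 libraries lay toward the other group on the first principal component and on opposite sides on the second. These correlations therefore cannot tell whether the numbers pair the libraries. Of the 17 list genes named past the test, 15 did not pass with the block, 4 under total library size and from 0 to 13 with a library left out. ROCK1 (0.01) ran from -0.057 to 0.055 with each library left out, below 0 without control replicate 1 or ERI2 siRNA replicate 1, and was -0.10 with replicates 2 and 3 alone, and EYA1 (-0.05) was 0.0099 under total library size; neither passed in any of these. The cause of these changes was not tested. Depth limits what can be said of NEFH, STMN2 and DCX, whose highest count in any library was 10.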
